A study of Mus musculus with 6 samples.

Results

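Imprinted growth genes are genes read mainly from the chromosome of 1 parent, many of which set the size of the fetus and placenta. The 10 examined here were Igf2, H19, Igf2r, Grb10, Plagl1, Peg3, Dlk1, Meg3, Rian and Mirg, taken by gene name from a table of 55421 genes, and each name matched 1 row. RNA sequencing had been done on bone marrow leukemia cells of C57BL/6 mice that carried AE9a, a truncated AML1-ETO fusion protein delivered by retrovirus into c-Kit positive marrow cells. The cells came from donors with both Ddit4 alleles (AE9a-Ddit4+/+, 3 libraries) or from donors lacking Ddit4 (AE9a-Ddit4-/-, 3 libraries), so AE9a and the transplantation were shared by both groups. Ddit4 encodes a stress-induced brake on mTOR signaling. By the study's methods, donors were young adults. The cells came from the marrow of transplanted mice, and which leukemia each library came from is not given in the sources used here. The paper reports leukemia in fewer primary recipients of knockout cells than there are knockout libraries. If all came from that cohort, some knockout libraries shared an origin. The p-values therefore measure the spread between these libraries, which may be technical, and not between separate leukemias.

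Imprinting works through DNA methylation laid down in the egg or sperm, which silences 1 parental copy of a gene or of a control region that serves a whole cluster. Paternally read genes such as Igf2, Dlk1, Peg3 and Plagl1 tend to promote growth, and maternally read genes such as H19, Igf2r and Grb10 tend to restrain it. In bone marrow, H19, Igf2 and the long noncoding RNAs of the Dlk1 to Dio3 cluster are known from quiescent blood stem cells, and adult tissues shut off much of this gene network. Total counts per gene do not say which parental copy was read, so imprinting itself was not measured.

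Igf2 was the 1 member that passed the test. It had 0 counts in all 3 AE9a-Ddit4+/+ libraries and 3088, 3394 and 509 counts in AE9a-Ddit4-/- libraries 1 to 3. H19 had non-overlapping groups with higher values in the knockout, and Grb10 non-overlapping groups with lower values, but neither passed the threshold. Dlk1, Meg3, Rian, Mirg and Peg3 were too low in these cells for the main test.

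**Figure D1:**
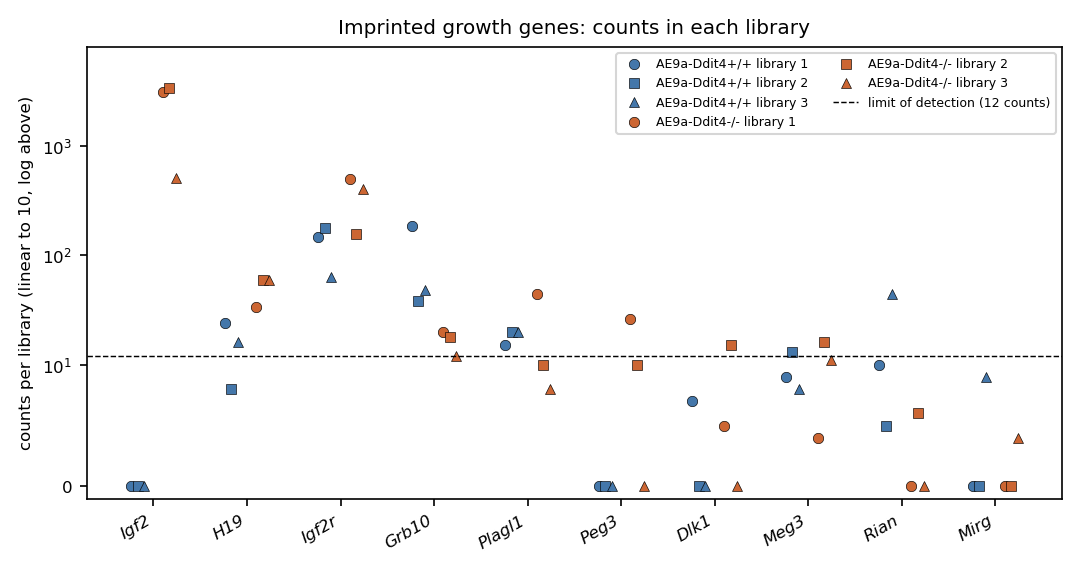
Counts of the 10 members in each library, on an axis that is linear to 10 and logarithmic above, with blue symbols for AE9a-Ddit4+/+ and orange symbols for AE9a-Ddit4-/- and a dashed line at 12 counts. Igf2 lies at 0 in all 3 AE9a-Ddit4+/+ libraries and at 509 to 3394 in the knockout, while Dlk1, Meg3, Rian, Mirg and Peg3 lie near or under the line in most libraries of both groups.

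The libraries held 62141558 to 72717681 counts, and totals did not separate the groups (exact permutation test, two-sided, p = 0.5). Knockout libraries had more genes with a count (22877 to 23771 against 21097 to 21892) and a larger mitochondrial share (11.3% to 16.4% against 5.03% to 7.90%), both at p = 0.1, the smallest p that 3 against 3 libraries allow in the exact permutation test. Ddit4 itself fell from 244 ± 91 to 82.8 ± 4.5 CPM (counts scaled to a common library total of 1e+06, mean ± SD, n = 3; edgeR adjusted p = 0.00635). The 4718 to 6316 Ddit4 counts that remained in libraries labelled Ddit4-/- go against a complete loss of the transcript. They do not measure protein, and by western blot the paper found DDIT4 protein to be missing from AE9a-Ddit4-/- leukemia cells. Which part of the gene the allele lacks was not looked at. Y-linked Ddx3y had 4 to 5 counts in AE9a-Ddit4+/+ and 6487 to 7586 in the knockout. Xist, which coats the inactive X in female cells, was lower in the knockout (edgeR adjusted p = 0.00642) but not absent. It had 65218, 38379 and 57098 counts in AE9a-Ddit4+/+ and 3938, 1232 and 9472 in knockout libraries 1 to 3. The source of the remaining Xist counts was not tested. Sex and genotype of the cells can therefore not be told apart in any comparison here. Runx1t1, the gene of the ETO part of the fusion, was at 11.9 ± 5.8 CPM in AE9a-Ddit4+/+ and 139 ± 68 CPM in the knockout. Many cell type markers also moved with genotype. Of erythroid markers 9 of 12 tested were lower, beside 10.7% of all genes tested, and none was higher. Beside 19.4% of all genes, markers of stem and progenitor cells (7 of 9, with 1 lower), megakaryocytes (8 of 9, with 1 lower), T and B lymphocytes (12 of 12), endothelium (7 of 9, with 2 lower) and stroma (6 of 10) were higher in the knockout. Of leukocyte and early myeloid markers, 2 of 10 were higher and 1 was lower. In bulk RNA, more cells of a type and more RNA per cell cannot be told apart.

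Igf2 (ENSMUSG00000048583) encodes insulin-like growth factor 2, a secreted fetal growth factor that signals through the IGF1 and insulin receptors. Its gene lies on the minus strand at chr7:142650766-142666816 (GRCm38). RefSeq gives it 4 promoter windows of 300 bases (250 before a transcript start and 50 after it), and the start used in these cells was not measured. The promoters with GC boxes (GGGCGG, the core letters bound by Sp1 family factors, searched on both strands) are shown because Igf2 is the member with the difference between groups. They are given 5′ to 3′ on the strand of the gene, with the GC boxes in capitals. The first lies at chr7:142657447-142657746 and the second at chr7:142658755-142659054 (minus strand, GRCm38.p6), and in the second the box is on the opposite strand.
Igf2 promoter window 1: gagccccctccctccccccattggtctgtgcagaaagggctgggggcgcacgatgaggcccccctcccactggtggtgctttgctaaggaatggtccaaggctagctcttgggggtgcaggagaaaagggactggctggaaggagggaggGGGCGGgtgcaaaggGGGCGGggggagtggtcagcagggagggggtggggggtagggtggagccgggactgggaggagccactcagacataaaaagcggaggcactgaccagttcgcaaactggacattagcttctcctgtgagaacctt
Igf2 promoter window 2: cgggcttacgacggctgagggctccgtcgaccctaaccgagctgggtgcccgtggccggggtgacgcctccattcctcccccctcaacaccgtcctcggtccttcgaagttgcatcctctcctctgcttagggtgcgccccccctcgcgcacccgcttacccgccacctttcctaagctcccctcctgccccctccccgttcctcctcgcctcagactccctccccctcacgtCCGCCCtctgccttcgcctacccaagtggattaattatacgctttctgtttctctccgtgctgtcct

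A GC box was present in 35.7% of 32851 RefSeq mouse promoter windows. The 4 Igf2 windows held 7, 24, 14 and 2 CpG dinucleotides, against a median of 7 over all windows. None of the 4 held the Runx letters TGTGGT (16.8% of all windows), TATAAA (13.6%) or the Plagl1 consensus of 10 letters (0.0852%). Over the members, 9 had at least 1 window and 14 windows were found. TGTGGT was in 1 window each of Dlk1 and Meg3, Igf2r had 3 GC boxes and the second Grb10 window 5. These are matches of letters and say nothing of binding.

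Igf2 and H19 each hold 1 annotated microRNA gene, Meg3 holds 2, Rian 4 and Mirg 14. Mature sequences from RefSeq are shown for the microRNAs of Igf2 and H19 and for miR-370 of Rian. They are processed RNAs made from these transcripts, and their seed (bases 2 to 8) is in capitals.
mmu-miR-483-5p (in Igf2): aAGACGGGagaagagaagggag
mmu-miR-483-3p (in Igf2): uCACUCCUccccucccgucuu
mmu-miR-675-5p (in H19): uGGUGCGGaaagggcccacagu
mmu-miR-675-3p (in H19): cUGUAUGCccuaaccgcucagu
mmu-miR-370-5p (in Rian): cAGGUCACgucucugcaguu
mmu-miR-370-3p (in Rian): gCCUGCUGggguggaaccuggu

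No seed is shared among these 6. The row of Mir483 was at 0 in all libraries, also where Igf2 had 3394 counts, and the row of Mir675 had 1 count in knockout libraries 1 and 3 and 0 elsewhere. Libraries made for long RNA do not measure mature microRNAs, so these rows carry no information on their level.

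On the CPM scale Igf2 was 0 in each AE9a-Ddit4+/+ library and 49.6, 55.9 and 6.92 in AE9a-Ddit4-/- libraries 1 to 3 (37.5 ± 26.6, SD, n = 3). The limit of detection was 12 counts, on average 0.184 CPM in AE9a-Ddit4+/+. Against this limit, the knockout mean was at least 203-fold higher, and the lowest knockout library alone at least 37.6-fold higher (edgeR adjusted p = 0.00297). Among all 18375 genes tested, 19.4% were called higher in the knockout, 10.7% lower and 30.1% in either direction. The 1 call among 5 tested members was close to that background share, no member was called lower, and 4 of the 5 had an unadjusted p below 0.05, as did 42.4% of all genes. Igf2 passed the filter on low counts only through the knockout.

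Knockout libraries differed among themselves in Igf2 by 8.07-fold, with library 3 lowest. Of 7234 genes with a knockout mean of 10 to 100 CPM, 37 (0.511%) had a ratio of highest to lowest library as large as this, and the median ratio was 1.47. Collagen genes of mesenchymal and bone cells, named after their values were seen, were likewise lowest among knockout libraries in library 3. Col1a2 was at 496, 451 and 44 counts in knockout libraries 1 to 3 and at 65, 86 and 49 in AE9a-Ddit4+/+ libraries. Col1a1 was at 427, 426 and 160 counts, against 143, 220 and 180. Neither collagen passed the threshold (edgeR adjusted p = 0.0748 and 0.199). In AE9a-Ddit4+/+ these collagens were above the limit of detection while Igf2 was at 0.

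Of 12 markers of mesenchymal stroma and bone, 10 were tested and 6 were higher in the knockout (Pdgfrb, Pdgfra, Ibsp, Runx2, Sp7 and Cxcl12), with none lower. The summed level of all 12 was 13.3 to 33.2 CPM in AE9a-Ddit4+/+ and 210.5 to 295 CPM in the knockout, where most of it was Pdgfrb at 138 to 162 CPM and Runx2 at 39.4 to 108 CPM. Among knockout libraries, 7 of the 10 tested markers were lowest in library 3 (the 3 collagens, Pdgfra, Ibsp, Runx2 and Lepr) and 3 in library 2 (Pdgfrb, Sp7 and Cxcl12), and the summed level was 295, 222 and 210.5 CPM in libraries 1 to 3. Bglap, the osteocalcin gene of mature osteoblasts, had at most 4 counts in any library. The part of such cells in the Igf2 counts was not tested.

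**Figure D2:**
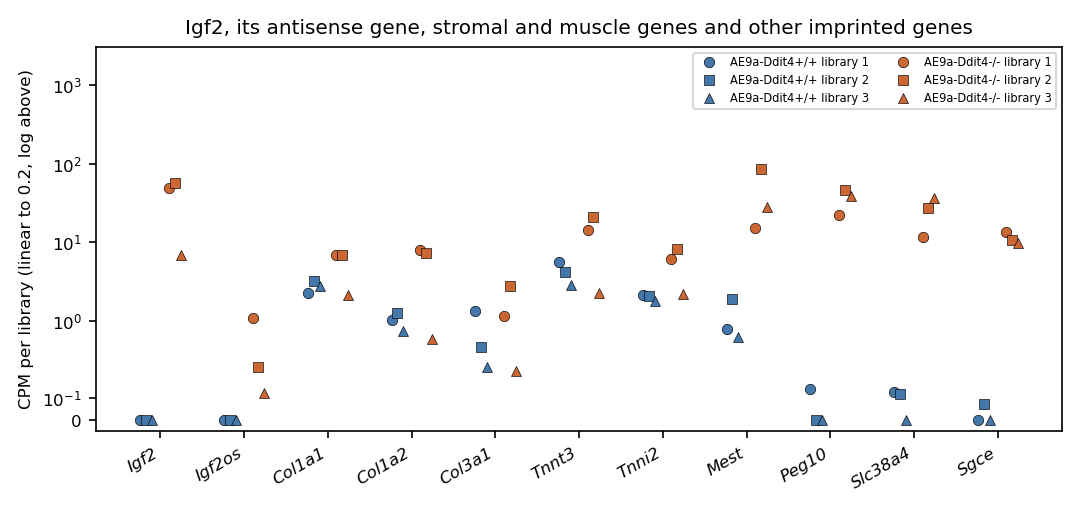
CPM in each library (axis linear to 0.2, logarithmic above) of Igf2, its antisense gene Igf2os, collagen genes, fast muscle troponins and 4 other imprinted genes, with 1 symbol per library. Igf2, Igf2os, the collagens, Tnnt3, Tnni2 and Sgce are lowest among knockout libraries in library 3, and Peg10, Slc38a4 and Mest in library 1. Igf2 and Mest are both highest in library 2.

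Igf2os, a noncoding gene antisense to Igf2, had 68, 16 and 9 counts in knockout libraries 1 to 3 and 0 in all AE9a-Ddit4+/+ libraries. It was too low to be tested. Since the use of strand in counting was not given, its reads and those of Igf2 cannot be told apart where both genes overlap. Gm49394, a gene model that spans Igf2 on the same strand, had 9 counts in AE9a-Ddit4+/+ library 1 and 0 in the other libraries. Ins2, the insulin gene next to Igf2, and Th, the tyrosine hydroxylase gene, were at 0 in all 6 libraries.

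H19 (ENSMUSG00000000031, chr7:142575529-142578143, minus strand) is a noncoding RNA read from the maternal chromosome under the same control region as Igf2. It had 24, 8 and 16 counts in AE9a-Ddit4+/+ libraries 1 to 3 and 34, 60 and 59 in the knockout. The groups did not overlap, yet values were near the limit of detection, at 0.248 ± 0.131 and 0.779 ± 0.222 CPM. The log2 fold change was 1.64 ± 0.63 (SE, 95% interval 0.18 to 3.10), and edgeR adjusted p = 0.0858 missed the threshold. Groups that did not overlap, with the knockout higher, were found for 27.9% of all genes tested. Within the knockout, H19 and Igf2 had different orders, since library 3 was lowest for Igf2 and library 1 for H19.

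Around Igf2 and H19, 25 annotated rows lay within 250 kb on either side, 11 of them tested. Besides Igf2, Ctsd rose, the gene of the lysosomal protease cathepsin D, from 417 ± 80 to 754 ± 103 CPM (log2 fold change 0.86 ± 0.21, edgeR adjusted p = 0.0187). Troponin genes of fast muscle, Tnnt3 (354, 286 and 187 counts in AE9a-Ddit4+/+ against 890, 1280 and 170) and Tnni2 (137, 141 and 116 against 379, 500 and 165), lay on the H19 side and shared with Igf2 the low value of knockout library 3. They did not pass (edgeR adjusted p = 0.142 and 0.0720). Mrpl23, a mitochondrial ribosomal protein gene between them and H19, was at 26.7 ± 2.6 and 26.9 ± 6.2 CPM.

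**Figure D3:**
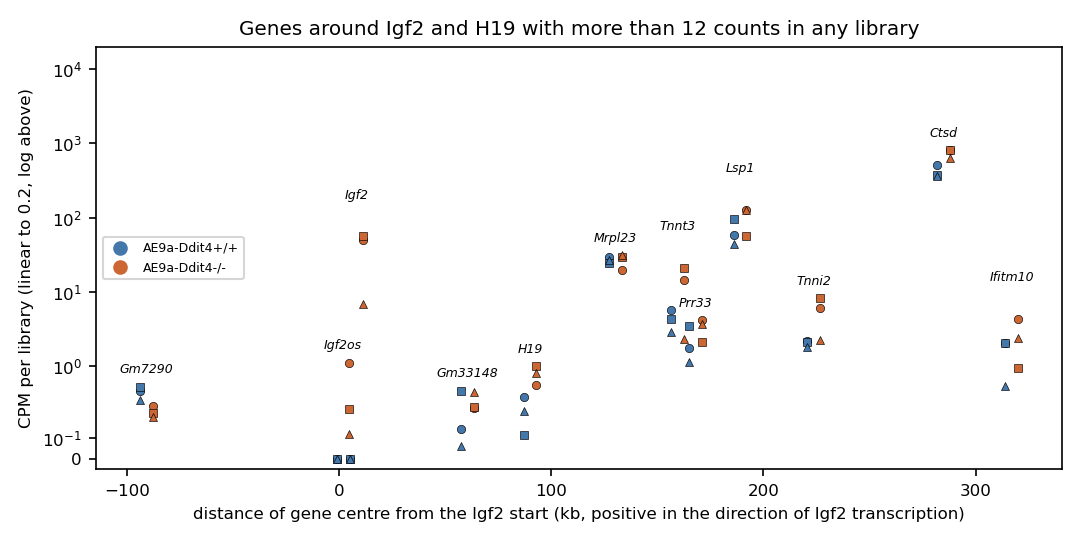
CPM of genes around Igf2 in each library (axis linear to 0.2, logarithmic above) against the distance of the gene's centre from the Igf2 start in kb, with points of the groups set 3 kb to either side. Igf2 goes from 0 to between 6.92 and 55.9 CPM, H19 stays under 1 CPM in all 6 libraries, and Mrpl23 overlaps between the groups.

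Igf2r (ENSMUSG00000023830, chr17:12682406-12769664, minus strand) encodes the receptor that takes IGF2 up for degradation and sorts lysosomal enzymes. It had 148, 178 and 63 counts in AE9a-Ddit4+/+ and 494, 157 and 406 in the knockout, where library 2 lay inside the range of AE9a-Ddit4+/+. Means were 1.98 ± 0.88 and 5.35 ± 2.68 CPM, with a log2 fold change of 1.43 ± 0.57 (95% interval 0.10 to 2.77, edgeR adjusted p = 0.0979). DESeq2 gave an adjusted p of 0.0304 and would call it higher. The Igf2r low in library 2 was not seen in Igf2, which was highest there. Airn, the antisense noncoding RNA that silences Igf2r on the paternal chromosome, had 9 and 5 counts in knockout libraries 1 and 3 and 0 in the rest.

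Slc22a3, an organic cation transporter gene of the Igf2r cluster, fell from 67.4 ± 16.3 to 5.49 ± 4.36 CPM (5434, 3797 and 3890 counts against 254, 122 and 763; log2 fold change -3.62 ± 0.60, edgeR adjusted p = 0.00455). Its neighbour Slc22a2 was at 0 in all libraries. Igf2r and Slc22a3, genes of the same cluster, thus had fold changes of opposite sign, of which that of Slc22a3 passed.

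Grb10 (ENSMUSG00000020176, chr11:11930508-12038683, minus strand) encodes an adaptor protein that dampens signaling by the insulin and IGF1 receptors and is stabilised by mTOR complex 1. It had 184, 38 and 48 counts in AE9a-Ddit4+/+ and 20, 18 and 12 in the knockout, 1.41 ± 1.31 and 0.260 ± 0.085 CPM. All knockout libraries lay below all AE9a-Ddit4+/+ libraries, a pattern of 22.2% of all genes tested. The log2 fold change was -2.43 ± 0.78 (95% interval -4.24 to -0.61), and edgeR adjusted p = 0.0509 missed the threshold narrowly. AE9a-Ddit4+/+ library 1 was 5.20 times as high as the lowest of its group, and without it the log2 fold change was -1.32 (adjusted p = 0.202). DESeq2, scaling by library totals, scaling without mitochondrial genes and a filter of 10 counts in every library each called Grb10 lower, as did leaving out AE9a-Ddit4+/+ library 2, with adjusted p-values down to 0.00915. Erythroid markers, whose sum went from 6919 to 15020.2 CPM in AE9a-Ddit4+/+ to 285 to 785 CPM in the knockout, were lower in the same libraries, and their part in the Grb10 values was not tested. Ddc, the neighbour of Grb10, was at 50, 36 and 19 counts against 24, 3 and 113, and Cobl at 0 throughout.

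Plagl1 (ENSMUSG00000019817, chr10:13060504-13131694, plus strand) encodes a zinc finger transcription factor that is known to bind regulatory regions of other imprinted genes. It had 15, 20 and 20 counts in AE9a-Ddit4+/+ and 44, 10 and 8 in the knockout, where library 1 was above and libraries 2 and 3 were below every AE9a-Ddit4+/+ library. The log2 fold change was 0.21 ± 0.81, with a 95% interval of -1.68 to 2.11 (edgeR adjusted p = 0.864). Without knockout library 1 it turned to -1.03, so no direction can be given.

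Peg3, a paternally read zinc finger gene at chr7:6703892-6730431, had 26, 10 and 0 counts in the knockout and 0 in every AE9a-Ddit4+/+ library. Only knockout library 1 was above the limit of detection. Without the filter on low counts its edgeR adjusted p was 0.115, and with DESeq2 0.0585. Its partners Zim1, Zim2, Zim3 and Zfp264 were at 0 in all libraries, and Usp29, read from the same start region, had 3 and 4 counts in AE9a-Ddit4+/+ libraries 1 and 2.

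The other 4 members form 1 cluster on chromosome 12. Dlk1 (chr12:109452823-109463336), a transmembrane regulator of differentiation read from the paternal copy, had 7, 0 and 0 counts in AE9a-Ddit4+/+ and 5, 15 and 0 in the knockout. Meg3 (chr12:109541001-109571726), a maternally read noncoding RNA, had 9, 13 and 8 against 4, 16 and 11, which overlapped fully. Rian (chr12:109603940-109661716), a noncoding RNA that hosts snoRNAs and microRNAs, had 10, 5 and 44 against 0, 6 and 0, with 1 library above the limit. Mirg (chr12:109729764-109749460), a host of a microRNA cluster, had 9 counts in AE9a-Ddit4+/+ library 3 and 4 in knockout library 3, with 0 in the rest.

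All 4 together summed to 166 counts over 6 libraries, and with Peg3 only 5 of 30 library values exceeded 12 counts. Without the filter on low counts none of the 4 was called (edgeR adjusted p = 0.643 for Dlk1, 0.995 for Meg3, 0.219 for Rian and 0.728 for Mirg). Values this close to the limit of detection restrict which differences could be detected at this depth. Rtl1, the retrotransposon-derived gene between Dlk1 and Dio3, had 12 counts in AE9a-Ddit4+/+ library 3 only, and Dio3 and Dio3os were at 0. From Dlk1 to Dio3, 103 of 116 annotated rows were at 0 in all libraries, among them most of 67 microRNA and 23 snoRNA rows, of which 5 had any count and none more than 1. The only row of the cluster that was tested was Gm3379, a processed pseudogene.

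Begain lies just outside the cluster. This gene of a postsynaptic scaffold-associated protein had 4, 0 and 0 counts in AE9a-Ddit4+/+ and 124, 241 and 277 in the knockout (3.24 ± 1.09 CPM), at least 17.6-fold higher against the limit of detection (edgeR adjusted p = 0.00356).

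Levels of different members were compared as CPM per kb of annotated exons. In AE9a-Ddit4+/+ the order was Igf2r (0.213 ± 0.095), Grb10 (0.155 ± 0.144), H19 (0.101 ± 0.053), Plagl1 (0.0359 ± 0.0049) and the low genes, with overlapping ranges between all neighbours except H19 and Plagl1. All were far below the median of 2.79 CPM per kb over genes tested. In the knockout Igf2 came first at 6.55 ± 4.65, a mean of 1.97 times the median of 3.32 although its lowest library, at 1.21, was under that median. The range of Igf2 did not overlap that of Igf2r (0.574 ± 0.288). H19 (0.317 ± 0.090) overlapped Igf2r and lay above Plagl1 (0.0418 ± 0.0422) and Grb10 (0.0286 ± 0.0094). Igf2 was the 1 member with a mean above the median per-kb level in any group.

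**Figure D4:**
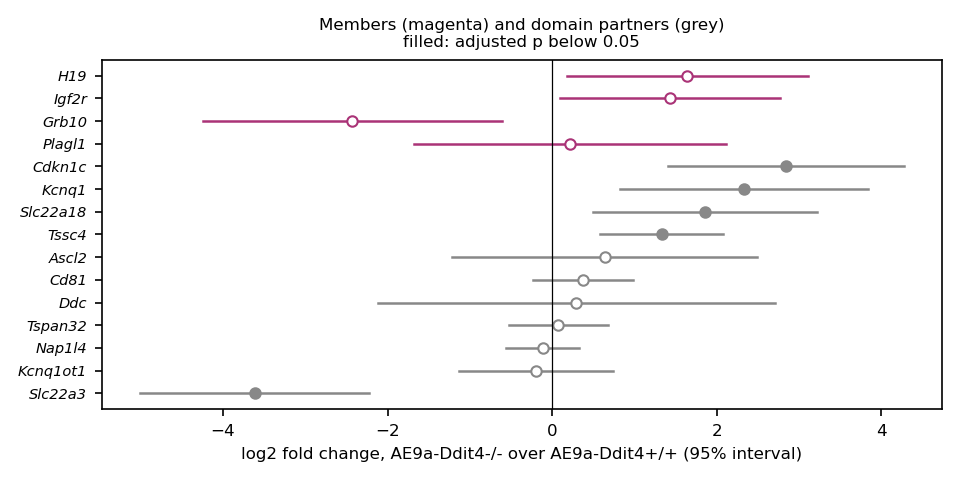
Log2 fold changes with 95% intervals for 4 tested members (magenta) and tested domain partners (grey), filled where the edgeR adjusted p was below 0.05. Igf2, Begain and Phlda2 are left out because 1 of their groups was at or under the limit of detection in all libraries. Intervals of H19, Igf2r and Grb10 lie to 1 side of 0 without passing after adjustment, and the interval of Plagl1 spans 0.

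The partners of these members in their imprinted clusters were followed as a list of 29 genes, 28 of them found and 13 tested. Of those, 5 were higher in the knockout and 2 lower, beside 19.4% and 10.7% of all genes, and the median log2 fold change was 0.37 beside 0.04 over all genes. Among them, Begain passed the filter on low counts only through the knockout and Phlda2 only through AE9a-Ddit4+/+. With at least 10 counts in every library, 3 of 8 tested partners were higher and 1 was lower. Without knockout library 1 or 2, only 2 partners were higher, and without AE9a-Ddit4+/+ library 3 only 3. The share of all genes called in those settings was not computed. The Cdkn1c and Kcnq1 cluster, which neighbours Igf2, held 10 of the 13 tested partners, of which 5 were called, and 2 of the other 3 were called. Cdkn1c, a maternally read inhibitor of cyclin-dependent kinases that holds stem cells in quiescence, rose from 1.0 ± 0.70 to 7.18 ± 2.35 CPM (26, 55 and 115 counts against 330, 390 and 722; log2 fold change 2.84 ± 0.61, edgeR adjusted p = 0.0122). Kcnq1, a potassium channel gene, rose by 2.33 ± 0.65 on the log2 scale, Slc22a18, a transporter gene, by 1.86 ± 0.58 and Tssc4 by 1.33 ± 0.32.

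In the same cluster Phlda2, a maternally read restrainer of placental growth, fell from 813, 128 and 375 counts to 0, 4 and 9, at least 37.1-fold lower (edgeR adjusted p = 0.00542), or at least 20.8-fold without AE9a-Ddit4+/+ library 1. Kcnq1ot1, the antisense RNA that silences this cluster on the paternal copy, was at 7.10 ± 2.74 and 6.19 ± 1.48 CPM, a log2 fold change of -0.20 ± 0.40. Ascl2, Cd81, Tspan32 and Nap1l4 did not pass either. Calls of Kcnq1 and Slc22a18 were lost in 7 of 14 and 10 of 16 alternative settings, that of Tssc4 in 5 of 16 and that of Cdkn1c in 1 of 16.

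Imprinted genes of other clusters were a list of 42, with 41 found and 29 tested. In the knockout 14 were higher and 1 was lower, beside 19.4% and 10.7% of all genes, with a median log2 fold change of 0.67. Among those higher, Peg10, Sgce, Slc38a4, Mkrn3 and Tfpi2 passed the filter on low counts only through the knockout, which bears on count and median. With at least 10 counts in every library, 8 of 22 tested were higher. Without knockout library 2, 9 were higher. The share of all genes called in those settings was not computed. Peg10, a retrotransposon-derived gene needed for the placenta, went from 9, 0 and 0 counts to 1389, 2768 and 2879, at least 194-fold higher (edgeR adjusted p = 0.00108). Sgce, which starts next to Peg10 on the opposite strand and encodes a sarcoglycan, went from 0, 5 and 0 to 841, 644 and 731, at least 61.6-fold higher (adjusted p = 0.00127). Slc38a4, an amino acid transporter gene, went from 8, 8 and 0 to 734, 1658 and 2723, at least 138-fold higher (adjusted p = 0.00121). Mkrn3, a ring finger gene, went from 0 in all libraries to 12, 69 and 13, at least 2.72-fold higher (adjusted p = 0.0208). That bound rests on knockout library 2, and without it the mean of the other libraries was at the limit of detection.

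Peg10, Sgce and Slc38a4 were, like Igf2, at or under the limit of detection in AE9a-Ddit4+/+. In knockout library 3 they had 2879, 731 and 2723 counts, where Igf2 had 509. On the CPM scale Sgce was, like Igf2, lowest in knockout library 3, at 13.5, 10.6 and 9.94 CPM in knockout libraries 1 to 3. Mest, a paternally read hydrolase gene, rose from 1.12 ± 0.70 to 43.3 ± 37.9 CPM and was spread over knockout libraries with 946, 5244 and 2083 counts, in another order than Igf2. Htr2a, a serotonin receptor gene, fell from 48.2 ± 10.1 to 23.8 ± 3.7 CPM (log2 fold change -1.02 ± 0.24), a call lost in 4 of 16 alternative settings. The call of Mkrn3 was lost in 3 of 14. Gnas, H13, Impact, Ube3a, Copg2 and Zrsr1, imprinted genes with group means of 23.6 CPM or more, did not pass. Among them, Gnas and Zrsr1 had lower means in the knockout (log2 fold change -0.15 and -0.70). Of the same list at such levels, Peg13 (32.5 ± 5.5 to 219 ± 49 CPM, edgeR adjusted p = 0.000502) and Trappc9 (39.9 ± 5.4 to 63.3 ± 8.2 CPM, adjusted p = 0.0419) rose. Both lie on chromosome 15, where the median log2 fold change was 0.39 over 344 genes, against -0.17 over all chromosomes compared. Trappc9 was at 0.67 and Peg13 at 2.75. Slc38a4 (8.25) and Zfat (1.23), also called higher, lie on that chromosome too. The part of the shift of chromosome 15 in these calls was not tested.

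**Figure D5:**
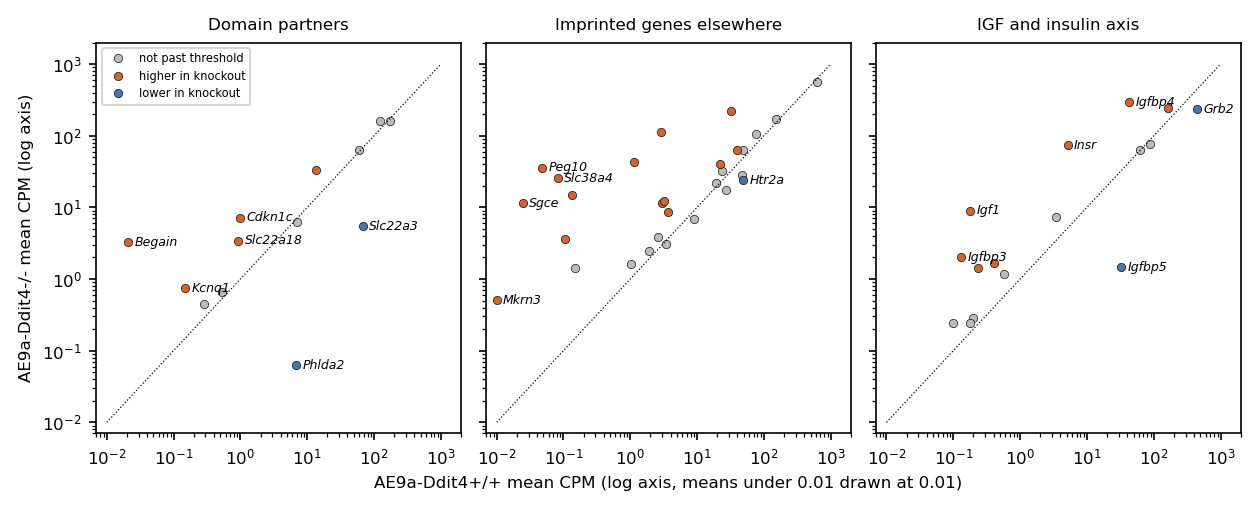
Mean CPM in AE9a-Ddit4-/- against mean CPM in AE9a-Ddit4+/+ (log axes, means under 0.01 drawn at 0.01) for tested genes of 3 lists, with a dotted line of equal level and up to 4 names per direction. In the middle panel 14 genes lie above the line as higher in the knockout, several of them at a mean under 0.1 CPM in AE9a-Ddit4+/+, and 1 gene, Htr2a, is lower.

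Genes of IGF and insulin signaling, the pathway that Igf2, Igf2r and Grb10 act on, were a list of 28, of which 16 were tested, 7 were higher in the knockout and 2 lower (median log2 fold change 1.07), beside 19.4% and 10.7% of all genes. Among ligands, Igf1, the main growth factor after birth, went from 0, 28 and 8 counts to 723, 583 and 404 (log2 fold change 5.61 ± 1.12, edgeR adjusted p = 0.00910). Igf2 thus was not the only ligand of the pathway with higher counts. Among receptors, Insr, the insulin receptor gene, rose from 5.14 ± 2.0 to 73.9 ± 4.5 CPM (log2 fold change 3.84 ± 0.32, adjusted p = 0.000447). Igf1r, which encodes the main signaling receptor of IGF2, was high in both groups and rose from 165 ± 8.6 to 244 ± 18 CPM (0.56 ± 0.16 on the log2 scale, adjusted p = 0.0341).

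Binding proteins that carry IGFs outside cells moved in both directions. Igfbp4 rose from 42.3 ± 26.1 to 291 ± 81 CPM (log2 fold change 2.79 ± 0.56) and Igfbp3 from 0.131 ± 0.133 to 2.02 ± 1.26 CPM (3.92 ± 1.11), and Igfbp6 and Igfbp7 rose as well. Igfbp5 fell from 32.0 ± 12.3 to 1.47 ± 1.21 CPM (log2 fold change -4.45 ± 0.77, edgeR adjusted p = 0.00527). Of the adaptors beside Grb10, Grb2, which links receptors to Ras, fell from 444 ± 32 to 233 ± 35 CPM (-0.93 ± 0.18), while Shc1 and Irs2 did not pass. With at least 10 counts in every library, 5 of 10 tested genes of the list were higher. Without AE9a-Ddit4+/+ library 1, only 3 genes of the list were higher, and without AE9a-Ddit4+/+ library 3 or knockout library 1, 4 were. The share of all genes called in those settings was not computed. The call of Igfbp3 was lost in 6 of 15 alternative settings.

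Regulators of imprints, the factors that copy or protect DNA methylation at control regions, were a list of 15 with 12 tested. None was called in either direction by edgeR after adjustment, 2 had an unadjusted p below 0.05 (42.4% of all genes did), limma-voom called 1 lower and DESeq2 0. Dnmt1, the maintenance methyltransferase, was at 306 ± 84 and 270 ± 92 CPM, Trim28 at 292 ± 44 and 282 ± 67 CPM and Ctcf, which insulates Igf2 from its enhancers on the maternal copy, at 171 ± 16 and 137 ± 24 CPM. Smchd1 had the largest difference relative to its error, at 167 ± 33 and 110.4 ± 5.2 CPM (log2 fold change -0.60 ± 0.19, edgeR adjusted p = 0.0524). Zfp57, which protects imprints in embryos, had 0 to 17 counts and was not tested.

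For Igf2, Igf2r, Grb10 and Plagl1, the tested gene with the most similar profile over the 6 libraries was found by the root mean square difference of log2 CPM after centring, with 0.5 CPM added. Igf2 was most like Sdk2, a cell adhesion gene, which was also at 0 in all AE9a-Ddit4+/+ libraries and had 3699, 2242 and 728 counts in the knockout (difference 0.329). Igf2r was most like Hmox1, the heme oxygenase gene (0.135), with 1125, 1377 and 669 counts in AE9a-Ddit4+/+ and 3367, 1387 and 3641 in the knockout. Grb10 was most like Fam172a (0.115) and Plagl1 like AA914427 (0.0550). The added 0.5 CPM flattens low genes such as Plagl1, so its small difference is not a closer match.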

How the data were processed

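The authors deposited 1 table of raw counts per gene for 6 libraries, all used. The labels name the builds GRCm38 and mm10, whereas the aligner, the counting tool and the use of strand are not given in the sources used here. Labels and methods name different library kits, for mRNA and for rRNA-depleted RNA. Positions came from GENCODE M21 on GRCm38, which held 55240 of the 55421 identifiers. Low values piled up at multiples of 4, so the limit of detection was set at 12 counts (0.163 to 0.198 CPM). It covers counting error only.

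Groups came from the labelled genotypes, and differential expression was tested in R 4.3.3 by edgeR 4.0.16 quasi-likelihood F-tests (filterByExpr, TMM factors 0.921 to 1.05, robust estimation, genotype as the 1 term). Benjamini-Hochberg adjustment ran over 18375 genes, and the threshold was 0.05. SE is the size of the log2 fold change over the root of its F statistic, and fold changes are knockout over AE9a-Ddit4+/+. Where all libraries of a group were at or under 12 counts, a lower bound of the fold is given, the other group's mean CPM over the mean CPM of 12 counts. CPM used TMM-scaled totals, and gene lengths were the union of annotated exons.

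Alternatives were RLE factors, library totals, TMM without mitochondrial genes, DESeq2 1.42.0, limma-voom (limma 3.58.1), 2 filters, counts divided by 4, a threshold of 0.01, a replicate block and leaving out each library. Genes named are all members, the partners tested, and from each other list up to 4 per direction with the largest log2 fold change past the threshold and no overlap of groups. The other genes were chosen after their values were seen. Members and lists were chosen with earlier results of these data known. Protein sequences were not used here, and the gene most like H19 is not reported here.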

Additional observations from a re-analysis of the deposited data

How the results depend on the processing

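Igf2 kept its call in all 16 alternatives in which it could be tested (adjusted p from 8.34e-14 to 0.0140), among them, chosen after seeing the data, the addition of the Gm49394 counts. Over 29 named genes, 390 recomputed fold changes kept direction and side of the threshold, 36 lost and 6 gained a call, and 12 changed sign. The count of members lower in the knockout went from 0 to 1 with library totals, TMM without mitochondrial genes, DESeq2 and a filter of 10 counts in every library, each time through Grb10. The count of members higher went to 2 of 9 tested with DESeq2. With 10 counts in every library it went to 0 of 2 tested, since that filter removes Igf2. The same filter gave 3 of 8 tested domain partners higher and 1 lower, and 8 of 22 tested imprinted genes elsewhere higher. The share of all genes called in each alternative was not computed, so these counts cannot be set beside it. At an adjusted p below 0.01, 1 domain partner, 8 imprinted genes elsewhere and 3 IGF axis genes were higher and 0 imprinted genes elsewhere lower. Imprint regulators had 1 lower with library totals and with limma-voom. The causes were not tested.

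Leaving out 1 library gave 0 to 1 members lower, 2 to 5 domain partners higher, 9 to 13 imprinted genes elsewhere higher and 0 to 2 lower, 3 to 7 IGF axis genes higher and 0 to 1 regulators lower. Domain partners higher were 2 without knockout library 1 or 2 and 3 without AE9a-Ddit4+/+ library 3. IGF axis genes higher were 3 when AE9a-Ddit4+/+ library 1 was dropped and 4 when its library 3 or knockout library 1 was. Imprinted genes elsewhere higher were 9 without knockout library 2. Same-numbered libraries did not deviate together (correlations -0.24, -0.28 and -0.04), so the numbers do not pair them. A replicate block gave 2 domain partners, 9 imprinted genes elsewhere and 3 IGF axis genes higher and 0 imprinted genes elsewhere lower. For these settings too, the share of all genes called was not computed.

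Sign changes were in genes that never passed: Plagl1 at -0.27 with limma-voom and -0.26 with the block, and Ddc at -0.54 and -0.65. Leaving out 1 library moved Plagl1 from -1.03 to 0.57, Ddc from -1.36 to 0.82, Tspan32 from -0.10 to 0.36, Kcnq1ot1 from -0.43 to 0.13 and Ascl2 from -0.062 to 1.12. Depth limits the 5 low members most, since only 5 of their 30 library values exceeded 12 counts, the limit set for all genes.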
